A study of Manis javanica with 3 samples.

Results

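The liver library of a Malayan pangolin (*Manis javanica*) was set against the small intestine and salivary gland libraries of the same series, and the genes that stood out in either direction were grouped by the function of their product. A gene entered when it had at least 10 counts in any of the 3 libraries, which left 18037 of 24220 genes. For each gene the liver FPKM was compared with the higher FPKM of the other libraries as log2((liver + 1)/(higher other + 1)). Genes with a ratio of at least 2 are called liver-high and genes at -2 or less are called liver-low.

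The RNA came from 1 adult female that died during rescue and was dissected at once, with 1 library per tissue. Reads were paired, unstranded and made on an Illumina HiSeq instrument. The gene tables hold 14568778 counts for liver, 10158924 for small intestine and 8318686 for salivary glands. With 1 library per tissue there is no replicate to check a difference against and no test was made between tissues, so every value below describes these libraries.

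Hepatocytes make most proteins of blood plasma, clear ammonia as urea, make glucose between meals, modify foreign compounds and form bile. The liver also holds a large population of resident macrophages and a lining of sinusoidal endothelium that filter portal blood. The functions below follow that order, and the functions that were low in liver come after them.

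Of the 18037 genes, 804 (4.46%) were liver-high and 1702 (9.44%) were liver-low. Being below the higher of 2 libraries is the easier condition, and 341 genes (1.89%) were also at -2 or less against the lower of them. By the same rule 566 genes (3.14%) were high in the library labelled small intestine and 258 (1.43%) in salivary glands. The median ratio over all genes was -0.20, or -0.39 from count shares with counts of 0 set at 3. Against the small intestine library alone the counts were 1069 high and 1204 low, and against the salivary gland library alone they were 1168 high and 839 low, so the balance of high and low genes depends on which library is set beside liver. In tissue RNA, fewer cells of a type and less RNA per cell cannot be told apart.

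The liver-high genes held 35.4% of all liver counts (95% Wilson interval 35.40 to 35.45, counting error only), 1.01% of small intestine counts and 1.18% of salivary gland counts. Liver-low genes held 1.35% of liver counts, 52.4% of small intestine counts and 30.6% of salivary gland counts. For 169 liver-high genes no fragment was counted in either of the other libraries, and for 308 liver-low genes none was counted in liver. Small intestine was the higher library for 1037 liver-low genes and salivary glands for 665. The liver-low set thus joins products of 2 unlike tissues.

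**Figure D1:**
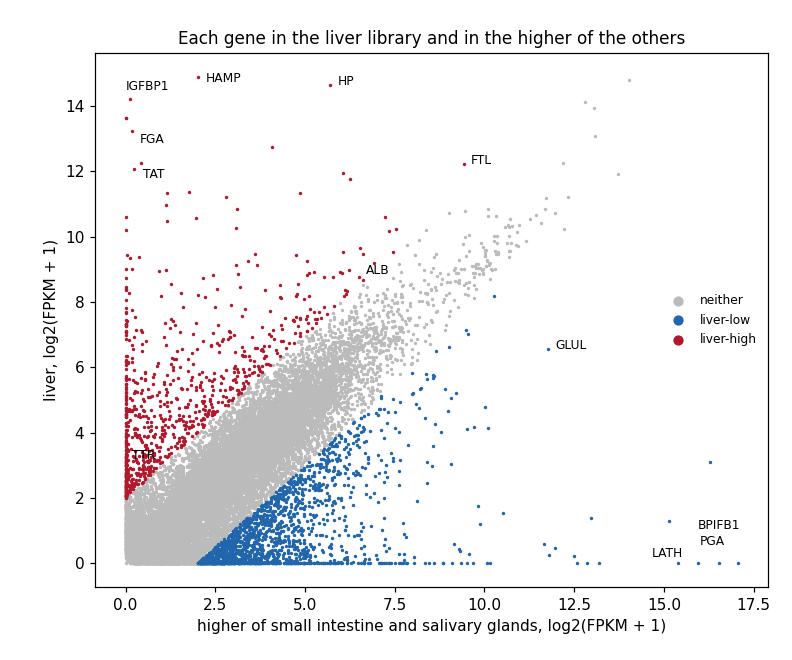
FPKM of each gene in the liver library and in the higher of the other libraries, on a log2 scale with 1 added. Red marks liver-high genes and blue marks liver-low genes.

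The label of the liver library was checked against hepatocyte markers. All 10 of 10 were counted and liver-high, with a summed level of 19200 FPKM in liver, 111 in small intestine and 123 in salivary glands, and the fibrinogen chain FGB was the most abundant of them in liver. Albumin (ALB, gene11696) was at 434 FPKM in liver, 89.1 in small intestine and 0.19 in salivary glands, which places it at rank 156 among liver genes. Transferrin (TF, gene16436) was at 75.7, 0 and 2.32 FPKM in the same order, at rank 900. Transthyretin (TTR, gene9783), a carrier of thyroid hormone and of retinol-binding protein, was at 6.77, 0.43 and 0 FPKM, at rank 7653, on 58 liver counts. These 3 proteins belong to the negative acute phase reactants, whose plasma levels fall in inflammation. Other negative reactants, RBP4 and AHSG, were more abundant and are given below.

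Plasma carriers and acute phase proteins formed a group of 45 genes, of which 26 were liver-high and 6 liver-low, with a median ratio of 2.70 (3.80 from count shares with counts of 0 set at 3). The group held 4.13% of liver counts, 0.25% of small intestine counts and 0.33% of salivary gland counts. Haptoglobin (HP, gene25455), which binds free hemoglobin, was at 25755 FPKM in liver, 51.2 in small intestine and 6.34 in salivary glands. The files carry a second haptoglobin gene (gene16057) at 6882, 15.9 and 2.03 FPKM, and how reads were shared between these near copies is not known. C-reactive protein (CRP, gene24234), a pentraxin that marks bacterial surfaces for complement, was at 4844, 0 and 0.35 FPKM. Serum amyloid A-2 (SAA2, gene26385), an acute phase apolipoprotein, was at 1556 FPKM in liver with no fragment in the other libraries, at least 2620-fold higher by count share. Alpha-1-acid glycoprotein (ORM1, gene2585) was at 2630, 2.42 and 2.24 FPKM. Lipopolysaccharide-binding protein (LBP, gene4746), which hands endotoxin to its receptor, was also well counted in salivary glands, at 1212, 73.7 and 186 FPKM.

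Several of these sit above carriers that are abundant in the plasma of other mammals. Hemopexin (HPX, gene18935), the heme carrier, was at 297 FPKM in liver, 3.04 in small intestine and 0.79 in salivary glands. Fetuin A (AHSG, gene23237), an inhibitor of mineral deposition, was at 699, 25.9 and 1.75 FPKM. Retinol-binding protein (RBP4, gene19019) was at 1987, 1.19 and 0 FPKM, well above its partner TTR in the same library. The most abundant gene of the group was FN1 in small intestine (41.4% of its summed FPKM there) and KNG1 in salivary glands (38.3%). Only some of the 6 liver-low genes of this group are named here, and those are relatives rather than the plasma proteins themselves. The gene whose Swiss-Prot hit is SERPINA7 (gene91) is serpin A11 by its NR hit, at 1.86, 0.12 and 30.6 FPKM. ITIH5 (gene9689) encodes a matrix heavy chain, at 1.03, 27.8 and 1.67 FPKM.

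Coagulation was the group with the largest share of liver counts, 8.16% (8.14 to 8.17), beside 0.034% in small intestine and 0.03% in salivary glands. Of its 30 genes 18 were liver-high and 2 liver-low, with a median ratio of 3.21 (3.95 with the 3-count floor). The chains of fibrinogen, which thrombin turns into the fibrin of a clot, make up most of it. FGB (gene1591) was at 12822 FPKM in liver and at 0 in the other libraries, at least 58100-fold higher by count share. FGG (gene1593) was at 12649 FPKM in liver and likewise at 0, at least 48400-fold higher. FGA (gene1592) was at 9658 FPKM in liver, 0.06 in small intestine and 0.12 in salivary glands. These genes lie side by side on 1 scaffold, and with a weakly liver-high neighbour, PLRG1 (gene1590), a splicing factor at 28.0, 5.58 and 6.24 FPKM, they form a run of 4 liver-high genes.

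Some factors that act before fibrinogen were also liver-high, at lower abundance. Factor X (F10, gene10407), which cuts prothrombin, was at 80.7 FPKM in liver and at 0 in the other libraries, at least 627-fold higher. Protein Z (PROZ, gene10408) lies beside it and was at 121, 6.44 and 0.16 FPKM. Its partner inhibitor, whose Swiss-Prot hit is SERPINA10 (gene86), was at 139, 0.07 and 0.34 FPKM. PROS1 by Swiss-Prot (gene11559) was low in liver, at 6.23, 46.9 and 36.3 FPKM, but its NR hit is growth arrest-specific protein 6, a ligand of receptor kinases and not a clotting factor.

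Complement was the group with the largest share of liver-high genes, 34 of 48, with 2 liver-low and a median ratio of 3.34 (4.03 with the 3-count floor). C3 (gene13195), the protein on which all complement pathways meet, was at 1421 FPKM in liver, 1.09 in small intestine and 1.24 in salivary glands. Factor B (CFB, gene6099), of the alternative pathway, was at 485, 61.3 and 9.32 FPKM. C4 (gene6104), of the classical and lectin pathways, was at 432, 45.4 and 26.6 FPKM. The liver-low genes were a C1q-like protein 4 by NR (gene5213), at 0, 3.71 and 0.12 FPKM, and factor D (CFD, gene7507), the protease that activates factor B and a product of fat cells in other mammals, at 28.3, 272 and 10.4 FPKM. Among inhibitors of proteases, plasma protease C1 inhibitor (gene13686) was at 739, 65.7 and 25.8 FPKM and alpha-1-antitrypsin (SERPINA1, gene88) at 586, 15.5 and 120 FPKM. The serpin group as a whole was divided, with 6 liver-high and 7 liver-low genes among 22. Its low members include intracellular serpins of squamous epithelium, such as SERPINB5 (gene22810), at 0 in liver, 30.5 in small intestine and 0.14 in salivary glands.

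Apolipoproteins and proteins that assemble lipoproteins gave 12 liver-high and no liver-low genes among 36. APOE (gene15152), the ligand that brings remnant particles back to liver, was at 3937 FPKM in liver, 66.1 in small intestine and 6.56 in salivary glands, and made up 69.3% of the summed FPKM of the group in liver. APOA1 (gene5532), the main protein of high density lipoprotein, was at 453, 4.43 and 0.39 FPKM. APOC3 (gene5531), an inhibitor of lipoprotein lipase, was at 336 FPKM in liver and 0 in the other libraries, at least 919-fold higher. APOB (gene18256), the backbone of very low density lipoprotein, was at 171, 0.02 and 0 FPKM. In other mammals APOB and APOA1 are also products of enterocytes that build chylomicrons. The library labelled small intestine held 3 counts of APOB, and its gastric markers were high, as given further below.

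Amino acid breakdown held the largest share of liver counts among the groups of metabolic enzymes. Of 84 genes of the urea cycle and of amino acid breakdown 29 were liver-high and none liver-low, and the group held 3.63% of liver counts, 0.17% of small intestine counts and 0.41% of salivary gland counts. Tyrosine aminotransferase (TAT, gene21751), the entry step of tyrosine breakdown, was at 4316 FPKM in liver, 0 in small intestine and 0.18 in salivary glands. Tryptophan 2,3-dioxygenase (TDO2 by its NR product, gene19300), the entry step of the kynurenine route, was at 2601, 27.9 and 2.11 FPKM. Serine dehydratase (SDS, gene24375), which makes pyruvate from serine, was at 666, 0.19 and 0.31 FPKM. The liver form of methionine adenosyltransferase (MAT1A, gene13510) was at 1176 FPKM in liver with no fragment in the other libraries, at least 13200-fold higher, whereas the form of other tissues (MAT2A, gene16935) was lowest in liver, at 31.7, 62.5 and 93.6 FPKM. This exchange of isoforms is the usual difference between hepatocytes and other cells. Arginase (ARG1, gene1242), the last step of urea synthesis, was at 372, 1.40 and 0 FPKM. CPS1 (gene8833, NR product), which fixes ammonia, was at 311, 0 and 0.07 FPKM.

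Markers of the periportal and pericentral ends of the liver lobule were also summed. The sums rest on different genes, so they do not compare the ends of the lobule with each other. ASS1 enters the periportal sum with both gene6509 (1219 FPKM in liver) and gene11006 (1856 FPKM in liver). All 8 of 8 periportal markers were counted, on 10 genes of which 9 were liver-high, with a summed level of 7320 FPKM in liver, 21.3 in small intestine and 30.4 in salivary glands, PCK1 being the most abundant in liver. Of 6 pericentral markers 4 were counted, on 5 genes of which 3 were liver-high and 1 liver-low, with a median ratio of 2.51. Their summed level was 341 FPKM in liver, 1130 in small intestine and 3495 in salivary glands. No gene in the files carried LGR5 or CYP2E1 as its NR product, so these markers could not be measured. Glutamine synthetase (GLUL, gene16231), which in rodent liver is confined to a ring of cells around the central vein, was at 93.5, 1096 and 3479 FPKM, a ratio of -5.20. CYP1A2 (gene25921), another pericentral enzyme, was at 22.7 FPKM in liver and 0 in the other libraries, at least 90-fold higher. Ornithine aminotransferase (OAT, gene14335) was at 220, 34.2 and 15.1 FPKM. So 2 of the pericentral enzymes were liver-high, and the low total of that list against the other libraries comes from GLUL.

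Glucose production was carried by few, very abundant transcripts. Of 28 genes 6 were liver-high and 2 liver-low, with a median ratio of 0.00, yet the group held 1.37% of liver counts beside 0.067% in small intestine and 0.094% in salivary glands. Phosphoenolpyruvate carboxykinase (PCK1, PPCK1 in the files, gene3329), the committed step from oxaloacetate, was at 2584 FPKM in liver, 0.54 in small intestine and 1.22 in salivary glands. Glucose-6-phosphatase (G6PC, gene6665), which releases free glucose, was at 509 FPKM in liver and 0 in the other libraries, at least 1700-fold higher. The brain form of glycogen phosphorylase (PYGB, gene8481) was low in liver, at 2.68, 53.6 and 27.7 FPKM.

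Among insulin-like growth factors and their binding proteins a single transcript dominated. IGFBP1 (gene14773), a plasma protein that other mammals raise in fasting and under glucocorticoids, was at 19034 FPKM in liver, 0.09 in small intestine and 0.08 in salivary glands, with 380327 counts in liver and 1 in each of the others. It had the highest ratio of all genes, and by count share it was 217000-fold higher than in salivary glands (counting interval 38300 to 1230000). IGFBP1 made up 93.5% of the summed FPKM of its group of 16 genes in liver. Its neighbour on the scaffold, IGFBP3 (gene14772), which carries most circulating insulin-like growth factor, went the other way, at 9.34, 166 and 22 FPKM. IGFBP4 (gene4492) was at 736, 174 and 26.6 FPKM.

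Among 52 genes of fatty acid oxidation and ketone bodies 1 was liver-high (1.92%) and 2 were liver-low (3.85%), beside 4.46% and 9.44% of all genes. Their median ratio was 0.29 beside -0.20 over all genes. The 1 liver-high gene was EHHADH (gene1910), a peroxisomal enzyme, at 39.3, 6.51 and 2.29 FPKM. The liver form of carnitine palmitoyltransferase (CPT1A, gene14755), which lets fatty acids into mitochondria, was at 10.3 FPKM in liver, 75.9 in small intestine and 67.2 in salivary glands, a ratio of -2.77. Among 39 genes of fatty acid and cholesterol synthesis 3 were liver-high (7.69%, beside 4.46% of all genes) and 6 liver-low (15.4%, beside 9.44%). The elongase ELOVL2 by NR (ELOVL5 in Swiss-Prot, gene6382) was liver-high at 120, 0.17 and 0.15 FPKM. ATP-citrate synthase (ACLY, gene8968), which supplies acetyl-CoA for synthesis, was at 7.72, 13.4 and 174 FPKM. The desaturase FADS1 (gene4662) was at 4.08, 5.40 and 40.8 FPKM, while FADS6 (gene2149) was at 58.4, 1.44 and 2.35 FPKM.

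Enzymes that modify foreign compounds and steroids were liver-high in large numbers. Among 53 cytochrome P450 genes 22 were liver-high and 4 liver-low, with a median ratio of 1.64 (1.51 with the 3-count floor). CYP27A1 (gene2961), which opens the acidic route to bile acids, was at 463 FPKM in liver, 7.77 in small intestine and 0.66 in salivary glands. A CYP2J gene (gene26713) was at 231, 0 and 2.02 FPKM. A CYP2F gene (gene9520) was at 182, 1.67 and 20.7 FPKM. The low members were extrahepatic forms, among them CYP2S1 by NR (CYP2G1 in Swiss-Prot, gene1977) at 0.11, 26.1 and 14.6 FPKM and CYP4B1 (gene16069) at 0.54, 0.95 and 18.6 FPKM. Bile acid genes gave 8 liver-high and 1 liver-low of 31, and the gene whose Swiss-Prot symbol is CYP7A1 (gene17719) is the 7-alpha-hydroxylase of oxysterols by NR, at 30.2, 0.21 and 0.42 FPKM.

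Conjugation enzymes followed, with 20 liver-high and 3 liver-low of 65 genes. The group held 0.577% of liver counts, 0.143% of small intestine counts and 0.372% of salivary gland counts. NNMT (gene13519) was its most abundant gene in every library, with 46.4%, 46.8% and 60.5% of the group's summed FPKM in the same order. GSTA1 (gene15544), a glutathione transferase, was at 264 FPKM in liver and 0 in the other libraries, at least 287-fold higher. GSTT1 (gene26263) was at 304, 26.4 and 11.1 FPKM. The glucuronosyltransferase UGT2B31 (gene26478), present in several near copies, was at 224 FPKM in liver and 0 elsewhere, at least 248-fold higher. Of flavin monooxygenases, FMO1 (gene11035) was at 174 FPKM in liver and 0 in the other libraries, at least 1650-fold higher. A gene whose product is named liver carboxylesterase 1 (gene2317) was at 48.9, 0.87 and 334 FPKM, so the name does not describe where it was most abundant.

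Iron handling held the most abundant liver transcript. Hepcidin (HAMP, gene10646), the hormone that shuts iron release from macrophages and enterocytes, was at 30304 FPKM in liver, 3.07 in small intestine and 0 in salivary glands, rank 1 in liver. Ferritin light chain (FTL, gene11863), which stores iron, was at 4813, 683 and 412 FPKM. ZIP14 (SLC39A14, gene5371), through which hepatocytes take up iron that is not bound to transferrin, was at 483, 37.0 and 6.80 FPKM, whereas its relative ZIP8 (gene4035, same Swiss-Prot symbol) was at 20.9, 28.2 and 324 FPKM. Manganese superoxide dismutase (SOD2, gene12102), which cytokines raise in many cells, was at 1540, 150 and 111 FPKM.

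**Figure D2:**
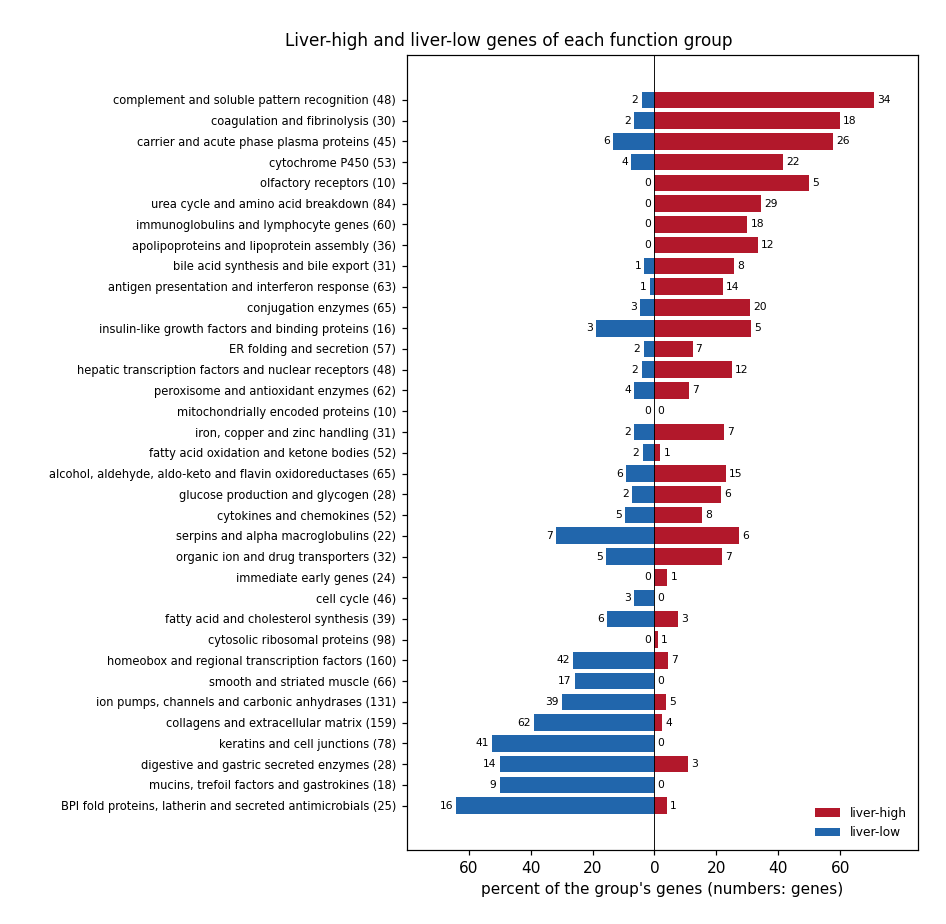
Share of the genes of each function group that were liver-high (red) and liver-low (blue), ordered by median ratio. The number of genes in each group is in parentheses.

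Hepatic transcription factors and nuclear receptors, a group that also takes in factors of many tissues, gave 12 liver-high and 2 liver-low genes of 48. HNF4A (NR product, gene18898), a nuclear receptor needed for hepatocyte identity, was at 22.2, 1.81 and 0 FPKM. FOXA3 (gene4383) was at 80.7, 8.67 and 0.84 FPKM. PROX1 (NR product, gene4866), which acts in hepatocyte and lymphatic fate, was at 24.8, 0.40 and 0.05 FPKM. CREB3L3 (gene22651), a membrane-bound factor of the endoplasmic reticulum that drives HAMP and CRP in mouse liver, was at 74.9, 1.55 and 0.24 FPKM, and a near copy (gene26659) was at 67.7, 2.66 and 0.07 FPKM. Of 57 genes of folding and secretion in that compartment 7 were liver-high and 2 liver-low, with a median ratio of 0.53. The most abundant of the 7 in liver were calreticulin (CALR, gene11283) at 800, 83.7 and 90.8 FPKM and BiP (HSPA5, gene10048) at 703, 68.5 and 96.4 FPKM. The 2 low members were the disulfide isomerases PDILT (gene3277) at 0, 456 and 0.28 FPKM and PDIA2 (gene18948) at 1.21, 113 and 1.08 FPKM. Over 98 genes of cytosolic ribosomal proteins the median ratio was -0.77, with 1 liver-high and 0 liver-low.

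Macrophage markers were high, 7 of 8 being counted and all 7 liver-high, with a summed level of 751 FPKM in liver, 46.2 in small intestine and 37.8 in salivary glands. C1QC (NR product, gene18222), a chain of the classical complement starter that macrophages make, was the most abundant in liver, at 367, 18.7 and 16.3 FPKM. CD163 (gene12806), the receptor that takes up haptoglobin with hemoglobin, was at 61.0, 7.67 and 6.96 FPKM. CD5L (NR product, gene3265), a secreted product of tissue macrophages, was at 21.8, 0.10 and 0.73 FPKM. C1QA was not found by its NR product. Of 7 endothelial markers 6 were counted and 2 were liver-high, CLEC4G (gene14105) at 30.0, 0.47 and 0.95 FPKM and STAB1 (gene15596) at 25.5, 3.44 and 2.74 FPKM, while the general endothelial marker PECAM1 (gene2704) was level at 18.0, 23.9 and 12.8 FPKM. Of 4 erythroid markers 1 reached the count limit, HBB (gene18135) having 4 counts in liver, 15 in small intestine and 0 in salivary glands. HBA was not found by its NR product, so its level is not known.

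Some other immune groups had more liver-high than liver-low genes. Immunoglobulin and lymphocyte genes gave 18 liver-high (30%, beside 4.46% of all genes) and no liver-low genes of 60. Of the 18, 17 are gene models that the authors joined from reads. Together the 60 genes had 7938 counts in liver, 1257 in small intestine and 2478 in salivary glands. Members that passed the limit of 10 counts only through liver could hardly be liver-low, and their number was not determined. With FPKM remade from counts and lengths, an alternative chosen after seeing the data, 13 were liver-high. The most abundant of the liver-high was an immunoglobulin gamma heavy chain (Manis_javanica_newGene_10431) at 116, 1.63 and 6.18 FPKM. Interferon and antigen presentation genes gave 14 liver-high and 1 liver-low of 63. MX1 (gene4681), an antiviral GTPase, was at 457, 31.9 and 6.27 FPKM. IFIT1 (gene3498), which binds viral RNA caps, was at 110, 5.40 and 0.75 FPKM, and it forms a run of 3 liver-high genes with a second IFIT1 and with IFIT3. Of 52 cytokines and chemokines 8 were liver-high (15.4%, beside 4.46% of all genes) and 5 liver-low (9.62%, beside 9.44%), with a median ratio of -0.09. Of the neutrophil markers 2 were counted and none was liver-high, S100A8 (gene23866) being at 105, 354 and 13.8 FPKM and S100A9 (gene23868) at 231, 166 and 44.1 FPKM, and of 4 counted lymphocyte and plasma cell markers 1 was liver-high. The most abundant of the liver-high cytokines was a C-C motif chemokine 14 by NR (CCL3 in Swiss-Prot, gene18414) at 181, 28.3 and 12.6 FPKM. Among the liver-low cytokines, CXCL8 (gene10428), which attracts neutrophils, was at 0, 21.7 and 17.5 FPKM, and CSF3 (gene22749), which raises their number, was at 0, 42.2 and 13.8 FPKM.

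**Figure D3:**
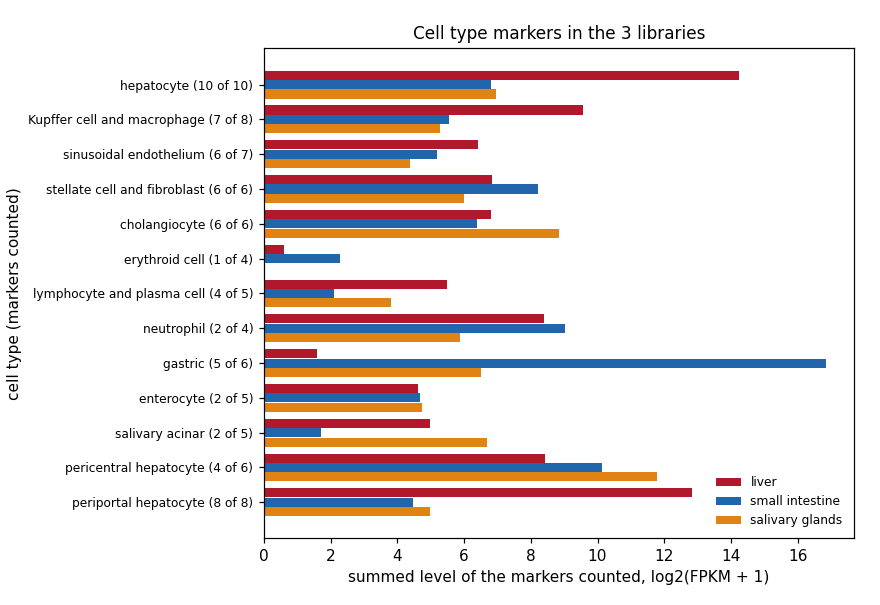
Summed FPKM of the counted markers of each cell type in the 3 libraries, on a log2 scale with 1 added. The numbers in parentheses give markers counted of markers looked for.

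Of the 10 genes with the lowest ratios, 2 had no Swiss-Prot or NR product (gene21524 at 1.43, 78.4 and 36170 FPKM and Manis_javanica_newGene_4003 at 7.47, 176 and 80008 FPKM). Others encode secreted proteins. BPIFB1 (gene2060), a secreted lipid-binding protein, was at 0 in liver, 136163 FPKM in small intestine and 133 in salivary glands. Pepsin A (PGA, gene4646), the acid protease of gastric chief cells, was at 0, 94138 and 71.7 FPKM. Latherin (LATH, gene14993), a surfactant protein of saliva and sweat, was at 0, 115 and 62922 FPKM. By count share these were at least 1120000-fold, 481000-fold and 386000-fold lower in liver than in the higher library. Gastric markers reached a summed 116900 FPKM in the library labelled small intestine. Enterocyte markers summed to 24.8 FPKM there, beside 23.7 in liver and 25.8 in salivary glands, with FABP2 at 0 in every library. The library was used under its label, and which part of the gut it holds was not tested.

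Digestive enzymes gave 14 liver-low and 3 liver-high of 28 genes. The low count comes from the library labelled small intestine, since against salivary glands alone, a comparison chosen after the data were seen, 3 were low and 4 high. The most abundant of the liver-high was a maltase-glucoamylase by NR (SI in Swiss-Prot, gene10946), a starch-digesting enzyme of the brush border in other mammals, at 114 FPKM in liver, 0.07 in small intestine and 0.01 in salivary glands. A cationic trypsin-3-like gene (gene10941) was at 77.3, 0.12 and 0 FPKM. Bile salt-activated lipase (CEL, gene25562) was at 17, 0.13 and 0.43 FPKM. Pancreas was not sampled in this series, and pancreatic or ductal tissue within the liver piece was not tested.

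Many genes of epithelial and stromal functions were liver-low. Keratins and cell junctions gave 41 liver-low and no liver-high genes of 78, with a median ratio of -2.20 (-3.18 with the 3-count floor). Against salivary glands alone, a comparison chosen after the data were seen and used for other groups below, they gave 21 low and 3 high with a median of -0.38. Keratin 4 (NR product, gene14291) was at 0, 825 and 0.64 FPKM. Claudin-3 (CLDN3, gene940), a tight junction protein, was at 6.84, 2.15 and 373 FPKM. Of 6 cholangiocyte markers all were counted, on 9 genes of which 7 were liver-low, with a median ratio of -2.96. Since those markers are shared with other ductal epithelia, a low ratio does not show that bile ducts were few.

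Collagens and matrix gave 62 liver-low and 4 liver-high of 159 genes, and muscle genes 17 liver-low and no liver-high of 66. Against salivary glands alone the matrix group gave 19 low and 11 high and the muscle group 13 low and 1 high. Of 6 stellate cell and fibroblast markers all were counted, on 7 genes of which 2 were liver-low (COL1A1 and COL3A1) and none liver-high. Decorin (DCN, gene3998) was at 91.4, 126 and 49.5 FPKM, and LRAT (gene19651), which stores vitamin A as esters in stellate cells, was at 2.28, 0 and 0 FPKM, a ratio of 1.71. Matrix Gla protein (MGP, gene24139), an inhibitor of calcification, was at 11.1, 375 and 135 FPKM. Transgelin (TAGLN, gene13468), of smooth muscle, was at 26.7, 1023 and 156 FPKM. Tropomyosin beta (TPM2, gene159) was at 1.30, 943 and 52.2 FPKM. Biglycan (BGN, gene21236) was the most abundant of the matrix genes that were liver-high, at 29.5, 5.47 and 1.94 FPKM. Of 160 homeobox and regional transcription factors 42 were liver-low and 7 liver-high (4.38%, beside 4.46% of all genes), PROX1 above being among the latter. Against salivary glands alone 27 were low and 11 high. The most abundant of the liver-high was a hematopoietically-expressed homeobox gene by NR (HLX in Swiss-Prot, gene8503) at 49.9, 1.27 and 1.74 FPKM. The liver-low include BARX1 by NR (Manis_javanica_newGene_7714), a factor of stomach mesenchyme, at 0, 63.5 and 0.25 FPKM. Ion pumps and channels gave 39 liver-low and 5 liver-high of 131 (19 low and 7 high against salivary glands alone), the aquaporin of hepatocyte glycerol uptake (AQP9 by NR, gene15075) being at 134, 0.38 and 0.11 FPKM and the pump subunit ATP1B1 (gene1012) at 32.5, 535 and 160 FPKM.

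The function groups covered 299 (37.2%) of the liver-high genes and 10.1% of all genes, and the groups of liver functions covered 227 (28.2%) and 4.16%. Outside them, 107 liver-high genes (13.3%) had no Swiss-Prot or NR product, beside 8.65% of all genes. The following were picked after their values had been seen. H6PD (gene9985), which makes NADPH inside the endoplasmic reticulum, was at 3465, 40.4 and 74.5 FPKM. The arginine transporter SLC7A2 (gene5457) was at 605, 9.54 and 1.955 FPKM. The amino acid transporter SLC38A4 (gene1122) was at 312, 1.91 and 0.11 FPKM. Di-N-acetylchitobiase (CTBS, gene1384), a lysosomal enzyme, was at 501, 1.20 and 0.11 FPKM. Follistatin (FST, gene5876), a secreted inhibitor of activins, was at 289, 0.998 and 0.38 FPKM. A gene model without product (Manis_javanica_newGene_11325) was at 1525, 2.48 and 2.86 FPKM.

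**Figure D4:**
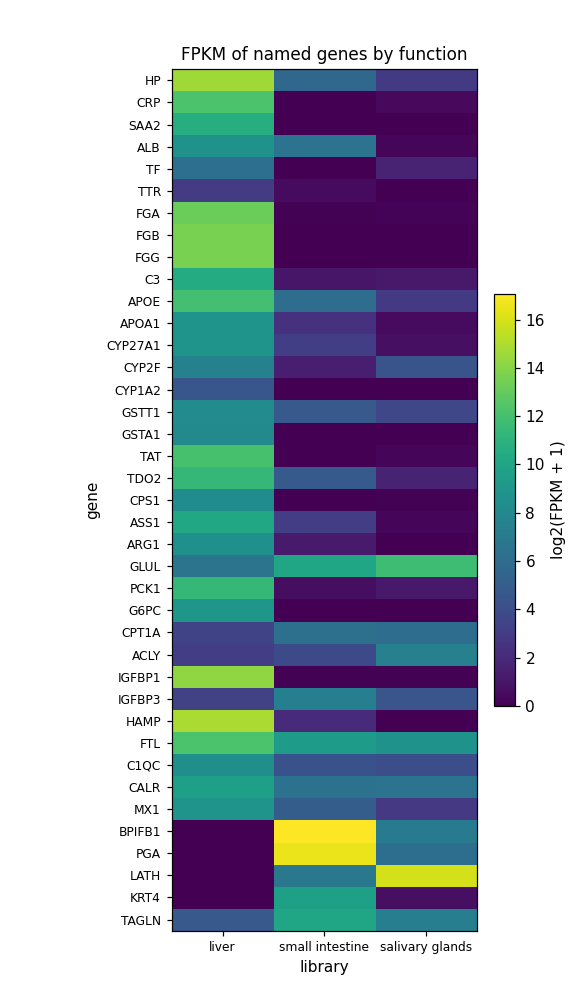
FPKM of named genes in the 3 libraries, ordered by function, on a log2 scale with 1 added.

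Liver-high genes also lay together in the genome. Of 605 liver-high genes with a counted gene beside them on a scaffold, 188 (31.1%) were next to another liver-high gene, beside 6.34% of all such genes, and for liver-low genes the figures were 27.4% beside 13.4%. Among the 20 runs of at least 3 liver-high genes were APOE with APOC2 and APOC4, APOA1 with APOC3 and an APOA4-like gene, F7 with F10 and PROZ, SERPINA10 with SERPINA6 and SERPINA1, and ITIH3 with ITIH1. Several of these are families of related genes. Gene models that the authors joined from reads are part of 10 of the 20 runs, such as the pair beside PCK1, and whether these are separate genes was not tested. How reads were shared between near-identical neighbours is not given in the tables.

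The values come from 1 animal that died in rescue, with 1 library per tissue, so differences between tissues and between library preparations cannot be told apart, and other animals were not sampled. Gene names rest on best database hits, reads were unstranded, and for 6 of 184 named genes with at least 10 liver counts, among them MX1 and the ASS1 copy gene11006, the FPKM was over 2 times what count and length give.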

How the data were processed

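Clean read pairs were aligned by the authors with TopHat2 to the *M. javanica* genome, reads outside annotated genes were joined with Cufflinks into new genes, and the deposited tables give for each gene a length, a count, an FPKM and a normalized value. The deposited counts are whole fragments per gene and are not scaled between libraries. The deposited FPKM were computed by the authors from transcript length and mapped fragments. The normalized values are a score that the authors made from the counts with a scaling factor by edgeR, and this 1 column per library was not used apart from comparing it with the counts. Products were the best Swiss-Prot and NR hits that the authors deposited for each gene.

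From these, log2((liver FPKM + 1)/(higher other FPKM + 1)) was computed for genes with at least 10 counts in any library, with thresholds of 2 and -2. Function groups (35) were made by matching words in either product entry. Shares of counts have 95% Wilson intervals. A count of 0 was set at 3 counts in the library concerned for each bound, computed on count shares, and where 1 to 3 fragments were counted the ratio of count shares is given with its interval. Named genes are the 10 liver-high genes with the highest liver FPKM, the 10 highest and 10 lowest ratios, in each group the 3 liver-high genes with the highest liver FPKM and the 3 liver-low genes with the highest FPKM elsewhere, in groups of liver functions the 3 lowest ratios, and all cell type markers. Named outside that rule are the plasma proteins ORM1, LBP, HPX, AHSG and RBP4, F10, PROZ and SERPINA10, PLRG1, the other members of runs of neighbours and the genes said in the text to have been picked after their values were seen. They too were picked with their values known.

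A gene goes by its NR product where the Swiss-Prot symbol belongs to a relative, and markers were found by NR product, or by symbol for COL1A1 and S100A9. The marker search terms and 3 added exclusions in the digestive and immunoglobulin groups were written after the tables had been seen. Members and lists were chosen with earlier results of these data known. Alternatives were other count limits, pseudocounts, thresholds and scalings (TPM from FPKM, TMM by edgeR 4.0.16 in R, median-of-ratios), other comparators, leaving out new genes, and products matched in both entries. Python 3.11.15, numpy 2.4.6 and pandas 2.3.3 were used. Sequences were not analysed here. Values of some genes that the rule names are not reported here.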

Additional observations from a re-analysis of the deposited data

How the results depend on the processing

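The counts of 804 liver-high and 1702 liver-low genes stayed within 1.5 times under count limits of 1 and 50, under TPM, TMM and median-of-ratios scaling, and without new genes. A pseudocount of 0.1 gave 1479 and 3320, and one of 5 gave 391 and 592. A threshold of 1 gave 2261 and 4262, and a threshold of 3 gave 386 and 707. Against the mean of the other libraries 1048 genes were liver-low, and against salivary glands alone 839. The comparator changes the high share of all calls from 32.1% to 48.1% with the mean, 47.0% with small intestine alone and 58.2% with salivary glands alone.

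No scaling moved the median of all genes by over 0.1 (shifts of 0.03, -0.08 and -0.08) or the high share by over 10 percentage points (29.2% to 33.5%). With FPKM remade from counts and lengths, an alternative chosen after seeing the data, 714 and 1592 genes were called, 671 and 1443 of them shared with the counts above. Over all scalings and pseudocounts 372 (46.3%) liver-high and 583 (34.3%) liver-low genes were shared.

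No function group's median changed sign under another scaling. With products matched in both entries the medians of serpins (0.39), glucose production (0.36), organic ion transporters (0.17) and cytokines (0.26) turned positive. Against a single other library, a group comparison chosen after seeing the data, these 4 medians and that of immediate early genes were positive against each library, and that of the cell cycle (0.12) against small intestine. Of 420 group counts under planned settings 98 moved over 1.5 times. No paired analysis was possible because each tissue has 1 library, and the result comes from no test.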

Other observations

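The authors' normalized value is 1 fixed multiple of the count for most genes, 1.57 in small intestine, 1.35 in salivary glands and 0.916 in liver. It was under 90% of that multiple for 18 genes in small intestine, 7 in salivary glands and 0 in liver.

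The FPKM of 797 liver genes with at least 10 counts was over 2 times what count and length give, beside 768 in small intestine and 719 in salivary glands.

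Of 10 olfactory receptor genes 5 were liver-high. Together the 10 genes had 1116 counts in liver, 9 in small intestine and 44 in salivary glands. Most of them therefore passed the limit of 10 counts only through liver, so the liver-high share follows largely from that limit. OR3A3 by Swiss-Prot (gene7387, olfactory receptor 13A1-like by NR) was at 29.0 FPKM on 479 counts in liver and at 0 in the other libraries, at least 91.2-fold higher.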
